A study of Homo sapiens with 6 samples.

Results

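ZBTB, ZSCAN, ZKSCAN and ZFP genes encode zinc finger proteins, most of which bind DNA and regulate transcription. A member is any gene whose symbol begins with ZBTB, ZSCAN, ZKSCAN or ZFP and continues with a digit. The rule found 70 of the 10779 genes that have a value: 42 of the 8121 genes with a translational efficiency, 62 of the 9570 transcripts with a ribosome occupancy along the mRNA, and 34 in both. By symbol there are 33 ZBTB, 15 ZSCAN, 5 ZKSCAN and 13 ZFP genes, and ZFP36L1 and ZFP36L2, which carry another kind of finger, are kept apart as the ZFP36 family. The symbols also brought in 1 gene that encodes no zinc finger, ZBTB8OS, and 1 read-through gene, ZFP91-CNTF, which shares its sequence with ZFP91. The data come from ribosome profiling in HEK293, a cell line of human embryonic kidney origin. All samples carry the label of a control siRNA, so no treatment was compared. There were 3 replicates, each with a library of ribosome-protected fragments (RPFs), which are the stretches of mRNA that a ribosome shields from nuclease, and a library of total RNA from the same lysate. Cells were treated with cycloheximide, which halts elongating ribosomes, at 100 µg/ml for 3 min before lysis.

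The classical zinc finger is a short fold held by a zinc ion between a pair of cysteines and a pair of histidines. Several fingers in a row, joined by a short conserved linker, read a DNA sequence. ZBTB proteins add an N-terminal BTB domain, which forms dimers and recruits corepressors, and ZSCAN and ZKSCAN proteins add a SCAN domain, which pairs proteins of the same kind. ZKSCAN proteins and several ZFP proteins also have a KRAB domain, which recruits the corepressor TRIM28. The fingers of the ZFP36 family are built from 3 cysteines and 1 histidine and bind AU-rich elements in the 3′UTR of mRNAs, which are then deadenylated and degraded.

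The first question was how much ribosome-bound RNA each member had for its mRNA. Translational efficiency is the authors' linear ratio of RPFs to total RNA, and the median over all genes and replicates was 0.383. The median of the 42 members was 0.302, with 0.305, 0.280 and 0.305 in replicates 1, 2 and 3. On the log2 scale the members' median lay at −0.34 from that of all genes, with −0.31, −0.43 and −0.34 in the replicates (SD 0.061, n = 3). Each gene was tested against the median of all genes with limma on log2(value + 0.01), and p-values were adjusted by the Benjamini-Hochberg method (FDR of 0.05). Of the members, 10 were higher than the median and 26 lower, and 6 did not pass. Over all 8121 genes 44.7% were higher and 44.6% lower. So 89.3% of all genes differed from the median beyond the replicate spread. Of the 232 ZNF genes, the family most like the members, 48 (20.7%) were higher and 146 (62.9%) lower, with a median efficiency of 0.268. The members' own shares were 23.8% higher and 61.9% lower, and the difference from ZNF genes was not tested.

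**Figure D1:**
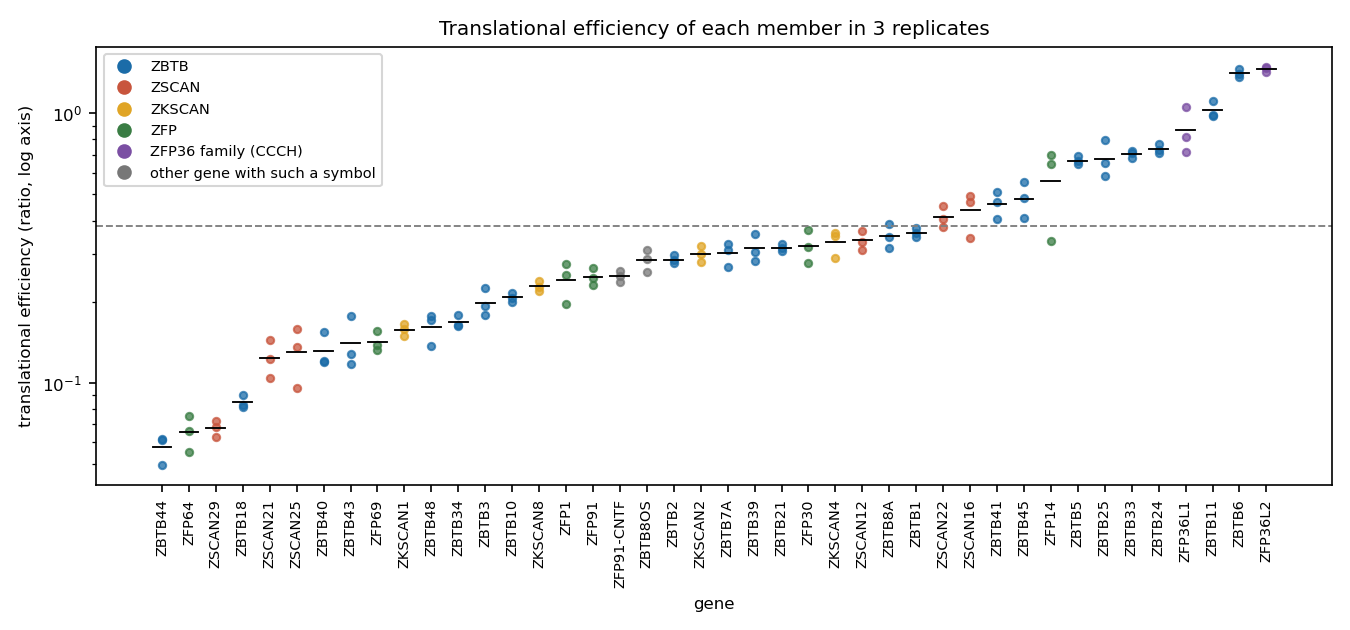
Translational efficiency of 42 members (vertical axis, log scale) in each of 3 replicates (points), ordered by mean (black bar) and coloured by subfamily; the dashed line is the median of all genes, 0.383. Members range from 0.0575 for ZBTB44 to 1.46 for ZFP36L2, and both genes of the ZFP36 family lie above the line.

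Higher members were found among ZBTB genes and in the ZFP36 family. Of 22 ZBTB genes 8 were higher and 12 lower, whereas of 6 ZSCAN, 4 ZKSCAN and 6 ZFP genes 0 were higher and 4, 3 and 5 were lower. The medians were 0.317 for ZBTB, 0.234 for ZSCAN, 0.265 for ZKSCAN and 0.244 for ZFP genes. Both genes of the ZFP36 family were higher. With 2 to 22 genes a subfamily, these counts are descriptions. Without ZBTB8OS and ZFP91-CNTF, both of which were lower, 10 members were higher and 24 lower.

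ZFP36L2 (GRCh37 chr2:43449541-43453745, minus strand) had the highest efficiency of the members, at 1.49, 1.47 and 1.42 in replicates 1, 2 and 3 (mean 1.46, SD 0.0336), or 1.90 ± 0.049 (SE) above the median on the log2 scale. Its paralog ZFP36L1 had 0.820, 0.720 and 1.05 (mean 0.864, SD 0.171). Both encode RNA-binding proteins that recruit the CCR4-NOT deadenylase, and the replicates of the pair did not overlap. ZBTB6 had 1.40, 1.37 and 1.46 (mean 1.41, SD 0.0486), and ZBTB11 had 1.11, 0.980 and 0.986 (mean 1.03, SD 0.0725). ZBTB24, which is mutated in a syndrome of immunodeficiency and unstable centromeres, had 0.773, 0.711 and 0.732 (mean 0.739, SD 0.0316). ZBTB33 (Kaiso), which binds methylated CpG sites, had 0.727, 0.682 and 0.713 (mean 0.707, SD 0.0227). All 3 replicates of each of these genes were above the median of all genes, and the adjusted p of limma was at most 3.28e-04.

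At the low end, ZBTB44 (GRCh37 chr11:130096572-130184812, minus strand) had 0.0610, 0.0496 and 0.0619 (mean 0.0575, SD 0.00685), or −2.55 ± 0.073 (SE) on the log2 scale. ZFP64, a regulator of MLL expression in leukaemia, had 0.0552, 0.0664 and 0.0756 (mean 0.0657, SD 0.0102). ZSCAN29 had 0.0722, 0.0631 and 0.0685 (mean 0.0680, SD 0.00461). The replicates of ZFP64 overlapped those of both ZBTB44 and ZSCAN29, which did not overlap each other. ZBTB18 (RP58), a repressor needed in developing neurons, had 0.0811, 0.0830 and 0.0903 (mean 0.0848, SD 0.00489). ZSCAN21 had 0.144, 0.122 and 0.104 (mean 0.123, SD 0.0196). Between ZBTB44 and ZFP36L2 the means of the members spanned from 0.0575 to 1.46.

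Other members known by function lay below the median. ZBTB7A (LRF), a repressor of fetal globin genes, had 0.311, 0.270 and 0.327 (mean 0.302, SD 0.0291), and ZBTB2 had 0.285, 0.278 and 0.297 (mean 0.287, SD 0.00972). ZBTB48 (TZAP), which binds telomeres, had 0.177, 0.137 and 0.171 (mean 0.162, SD 0.0213). ZKSCAN1, whose gene is also the source of an abundant circular RNA, had 0.158, 0.149 and 0.165 (mean 0.157, SD 0.00830). ZFP91, a protein degraded in the presence of thalidomide analogs, had 0.266, 0.246 and 0.231 (mean 0.248, SD 0.0178), and the read-through gene ZFP91-CNTF had 0.260, 0.237 and 0.249. Since 91.8% of the 30-nt stretches of the ZFP91 CDS also occur in transcripts of other genes, the 2 symbols do not stand for separate measurements. The adjusted p of limma was at most 0.00648 for each of these genes.

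The replicates differed most, on the log2 scale, for ZFP14, ZSCAN25 and ZBTB43. ZFP14 had 0.650, 0.337 and 0.700 (log2 SD 0.57) and did not pass the test (limma, adjusted p = 0.091), but it passed without replicate 2 (adjusted p = 6.65e-04). ZSCAN25 had 0.0956, 0.158 and 0.136 (log2 SD 0.35) and ZBTB43 had 0.128, 0.117 and 0.176 (log2 SD 0.29), and both were lower in every replicate. Over all 42 members the median log2 SD was 0.13, against 0.10 for all genes.

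Genes that work with these factors were described in the same fit. The other BTB zinc finger genes with a value, HIC2, MYNN, PATZ1 and GZF1, were all lower, with means of 0.0762 to 0.217. Of 21 other SCAN domain genes 12 had a value, and 3 were higher and 7 lower (median 0.294). Of 24 corepressors and partners 12 were higher and 12 lower (median 0.397), from 0.05 for CTBP1 to 3.61 for CBX3, a heterochromatin protein. TRIM28, the corepressor of KRAB domains, had 0.797, 0.847 and 0.718 (mean 0.787, SD 0.0647), and CUL3, the ligase scaffold that BTB domains bind, had 1.15, 0.951 and 1.08 (mean 1.06, SD 0.101). By their means TRIM28 and CUL3 exceeded 38 and 40 of the 42 members.

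The second table gives the occupancy of each codon. Occupancy is the RPF count at a codon in the reading frame, normalized by the authors for library size and divided by the abundance (TPM) of the transcript in total RNA, with the replicates combined. Every value in the table of the 62 member transcripts was a sum of whole multiples of 3 numbers, at a relative tolerance of 5e-14. These numbers are what a single read of each library was worth, so the reads behind each codon could be recovered as 3 sets. The sets are numbered by the worth of a read, smallest first, and were not assigned to replicate numbers. The 62 members had 30237, 24285 and 16469 CDS reads in read sets 1, 2 and 3. The median was 659 CDS reads a member, from 31 for ZFP41 to 7232 for ZBTB10, against 1776 for all transcripts, and the median member had a read in 37.2% of its codons. The worth of a read also gives the relative abundance of a transcript, and this was below that of the median transcript for 52 of 62 members (83.9%).

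Mean CDS occupancy had a median of 0.0313 per codon over the 62 members (0.0339, 0.0304 and 0.0297 in the 3 read sets, SD 0.00225), against 0.0450 for all transcripts and 0.0436 for 341 ZNF transcripts. By subfamily it was 0.0241 for 30 ZBTB, 0.0339 for 14 ZSCAN, 0.0734 for 4 ZKSCAN and 0.0323 for 11 ZFP transcripts. Among the 34 members in both tables translational efficiency and CDS occupancy had a Spearman coefficient of 0.725 (Pearson 0.713 on the log2 scale), and it was 0.688 over all 6912 genes in both. Both measures share the RPF libraries and a total RNA denominator, so the coefficient is a description. Single genes could lie on opposite sides of the 2 medians of all genes. ZBTB24, higher in efficiency (0.739), had an occupancy of 0.0261, below the median. ZBTB10, lower in efficiency (0.207), had 0.0524, above it.

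**Figure D2:**
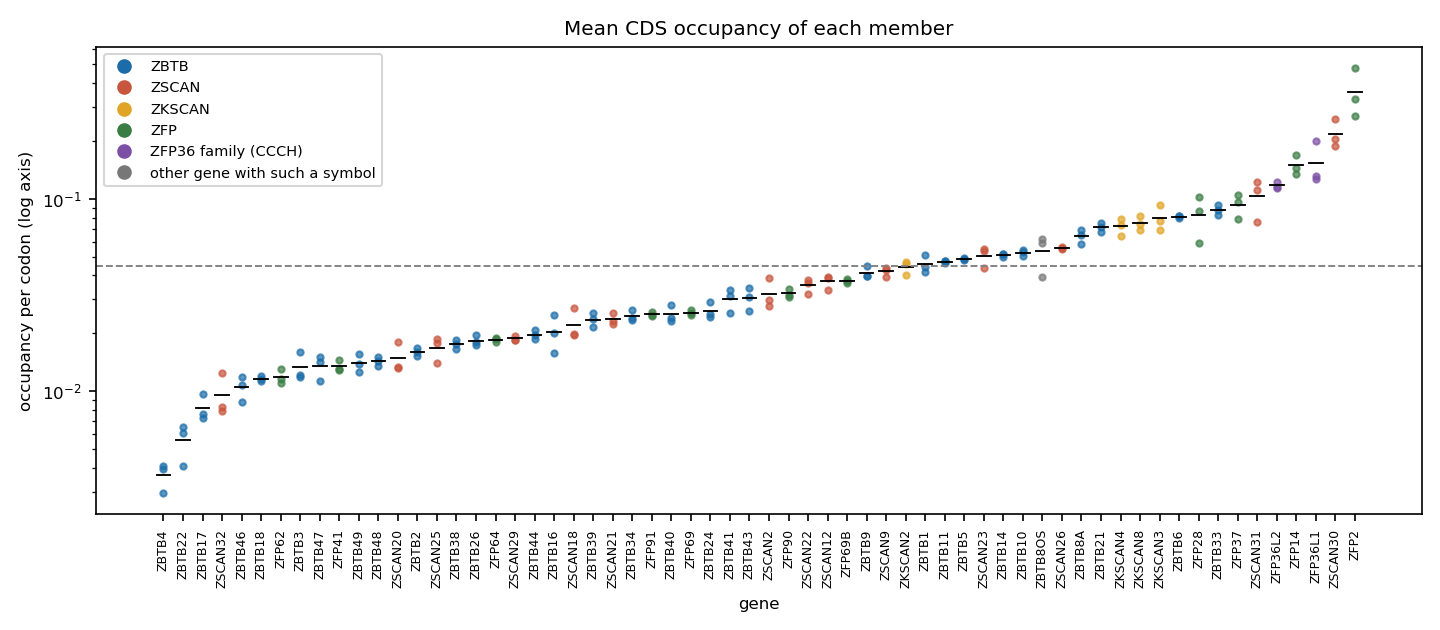
Mean occupancy per codon of the CDS (vertical axis, log scale) of 62 members; points are the 3 read sets, black bars the deposited values combined over libraries, and the dashed line the median of all transcripts, 0.0450. Values run from 0.00366 for ZBTB4 to 0.360 for ZFP2, and the points of a gene lie close together at this scale.

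The lowest occupancies were those of ZBTB4, ZBTB22 and ZBTB17. ZBTB4, a relative of Kaiso that binds methylated DNA, had 0.00408, 0.00394 and 0.00295 in read sets 1, 2 and 3 (SD 0.00062) on 121 reads. ZBTB22 had 0.00408, 0.00652 and 0.00603 on 117 reads. ZBTB17 (MIZ1), a partner of MYC, had 0.00723, 0.00764 and 0.00968 on 295 reads. The read sets of ZBTB4 and ZBTB22 touched at their ends, and those of ZBTB17 lay above both.

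The highest occupancies were those of ZFP2 (0.271, 0.478 and 0.332, SD 0.106), ZSCAN30 (0.188, 0.259 and 0.206, SD 0.0373) and ZFP36L1 (0.132, 0.2 and 0.128, SD 0.0407). Their abundance was 0.0411, 0.0929 and 0.0985 times that of the median transcript, and all 3 rested on 539 to 595 reads. The deposited value is divided by abundance, and the part of a low denominator in these levels was not tested. The deposited CDS of ZFP36L1 has 408 codons, 69 more than the longest GENCODE CDS of the gene.

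Members known by function that had no efficiency in the table were spread over the range. ZBTB16 (PLZF), a factor of blood and germline stem cells, had an occupancy of 0.0203 on 70 reads, at 0.0561 times the median abundance. ZBTB38, also a relative of Kaiso, had 0.0176 on 494 reads (SD 0.00094 over read sets). ZBTB14 had 0.0512 on 644 reads (SD 0.0012). ZKSCAN3, a repressor of autophagy genes, had 0.0767, 0.0932 and 0.0692 in the 3 read sets on 314 reads.

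SCAN domain genes lie together on chromosome 6. In GRCh37 coordinates 9 members, 6 of them ZSCAN and 3 ZKSCAN, fall between 28075467 and 28411279. The 4 with an efficiency ranged from 0.228 for ZKSCAN8 to 0.436 for ZSCAN16, and 2 of them were lower than the median. The 8 with an occupancy ranged from 0.0372 for ZSCAN12 to 0.103 for ZSCAN31, with a median of 0.0638. Among those with a CDS matched to GENCODE, up to 20.2% of the CDS, in ZKSCAN4, occurs in transcripts of other genes. ZKSCAN8 and ZSCAN16 have no such value.

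For several members the deposited transcript is not the longest form of the protein. In 8 of 62 the CDS was under 80% of the longest GENCODE CDS of the gene: ZBTB24, ZBTB8OS, ZKSCAN3, ZKSCAN8, ZSCAN2, ZSCAN30, ZSCAN31 and ZSCAN32. The ZSCAN2 transcript has 147 of 615 codons and holds no zinc finger, and that of ZBTB24 has 334 of 698 codons. Since the authors chose 1 transcript a gene by abundance, the occupancy of these genes is given along a short form. Reads on codons shared with longer forms are not told apart, and the efficiency is given by gene.

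The reads were not spread evenly along the CDS. The occupancy of the first 75 codons divided by that of the last 75 codons had a median of 0.858 over 62 members (0.817, 0.947 and 0.755 in the read sets, SD 0.0983), against 0.980 over all transcripts. It was 1.01 for ZBTB, 0.904 for ZSCAN, 0.275 for ZKSCAN and 0.408 for ZFP transcripts, and 1.15 for ZNF transcripts. Reads in both windows were compared within each read set with limma over the 7584 transcripts that had at least 100 reads in the windows. Of 46 members tested, 10 had more reads at the start and 22 at the end. Over all transcripts 36.2% had more at the start and 39.0% at the end. All 4 ZKSCAN transcripts and 5 of 9 ZFP transcripts had more in the last window. In 2 transcripts, ZSCAN2 and ZBTB8OS, the windows overlap.

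**Figure D3:**
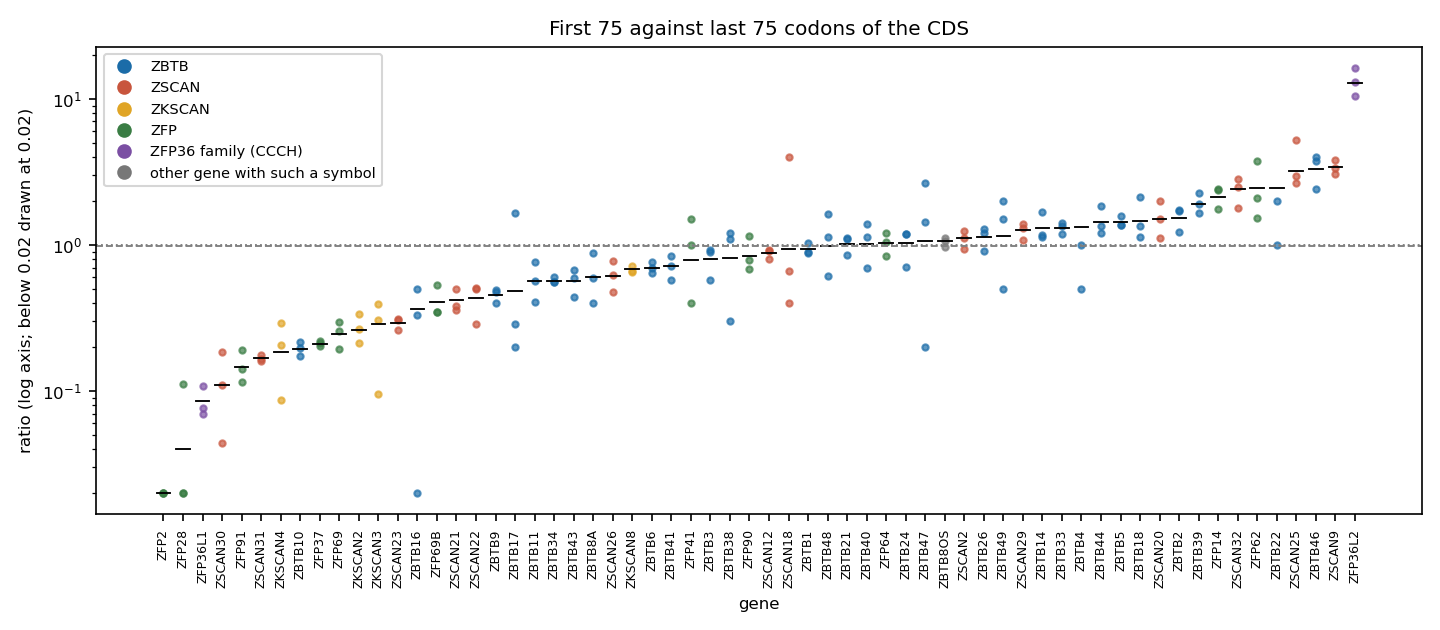
Ratio of the mean occupancy of the first 75 to that of the last 75 codons (vertical axis, log scale) for 62 members; points are the 3 read sets, black bars the deposited values, the dashed line the median of all transcripts, 0.980, and the dotted line 1. ZFP36L2 at 12.9 stands above all others, and the ratio of ZFP2 is 0, drawn at the lower edge.

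ZFP36L2 and ZFP36L1 differed in direction. In read sets 1, 2 and 3 ZFP36L2 had 769, 542 and 437 reads in the first 75 codons and 59, 52 and 27 in the last, a ratio of 12.9 (SD 2.9), and its highest codon was codon 28 with 265 reads. ZFP36L1 had 3, 5 and 4 reads in the first and 43, 65 and 37 in the last, a ratio of 0.0854 (SD 0.020). The deposited CDS of ZFP36L1 is 69 codons longer than that of any GENCODE transcript of the gene. Where these codons lie was not determined, so its first window may not be like that of ZFP36L2. In ZFP36L1 5% of the reads were reached only at codon 87, against codon 38 in the median member. Of the 10 members that passed the test as higher in the first window, ZSCAN9 had the next highest ratio, with 81, 73 and 49 reads in the first against 24, 19 and 16 in the last window (ratio 3.39, SD 0.39). ZSCAN25 followed with a ratio of 3.19 (limma adjusted p = 0.00185). ZBTB46, a marker of dendritic cells, had 44 against 14 reads in all (ratio 3.30), too few for the test.

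ZFP2 (GRCh37 chr5:178322899-178360213, plus strand) had 0 reads in its first 75 codons in every read set and 59, 69 and 40 in the last 75. A count of 0 allows up to 0.504% of its 595 CDS reads, by counting error alone. Its first read lay at codon 102 of 462, and its first finger begins at codon 104. ZFP28 had 1 read against 22. The median member had its first read at codon 1. Back-loading was also seen in members with many reads: ZFP91 had 45, 42 and 21 reads in the first and 320, 220 and 181 in the last window (ratio 0.146, SD 0.038, limma adjusted p = 3.34e-04). ZBTB33, in contrast, had 329, 282 and 228 in the first and 277, 208 and 162 in the last (ratio 1.31, SD 0.11, limma adjusted p = 0.019).

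Zinc fingers were located by translating the CDS of the matched GENCODE transcript and searching for a pair of cysteines 2 to 4 residues apart, 12 residues, and a pair of histidines 3 to 5 residues apart. A CDS was matched for 56 members, and 49 of them had at least 2 fingers, from 2 to 25 (in ZFP62), 368 in all. The fingers took 23.6% of the CDS in the median member. The occupancy of finger codons divided by that of all other codons of the same CDS had a median of 1.27 over the 49 members (1.28, 1.29 and 1.29 in the read sets, SD 0.0053). It was above 1 in 36 of them. For 295 ZNF transcripts the median was 1.35, and the ratio was above 1 in 227 of them. Within a transcript the abundance cancels out. The position of the fingers does not: the first began at codon 700 of 848 in ZBTB10 and at codon 104 of 462 in ZFP2. The part of the uneven spread of reads along the CDS in this ratio and in the calls below was not tested.

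By subfamily the median ratio was 1.11 for 24 ZBTB, 1.39 for 13 ZSCAN, 2.02 for 3 ZKSCAN and 1.92 for 9 ZFP transcripts. In a limma fit over the 341 zinc finger transcripts with at least 100 reads, 24 of 48 members had more reads per codon in the fingers and 4 had fewer. Over all 341 transcripts 56.6% had more and 14.1% fewer. All 4 with fewer were ZBTB genes, of which 7 of 23 had more, while 7 of 13 ZSCAN, all 3 ZKSCAN and 7 of 9 ZFP transcripts had more and 0 fewer.

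**Figure D4:**
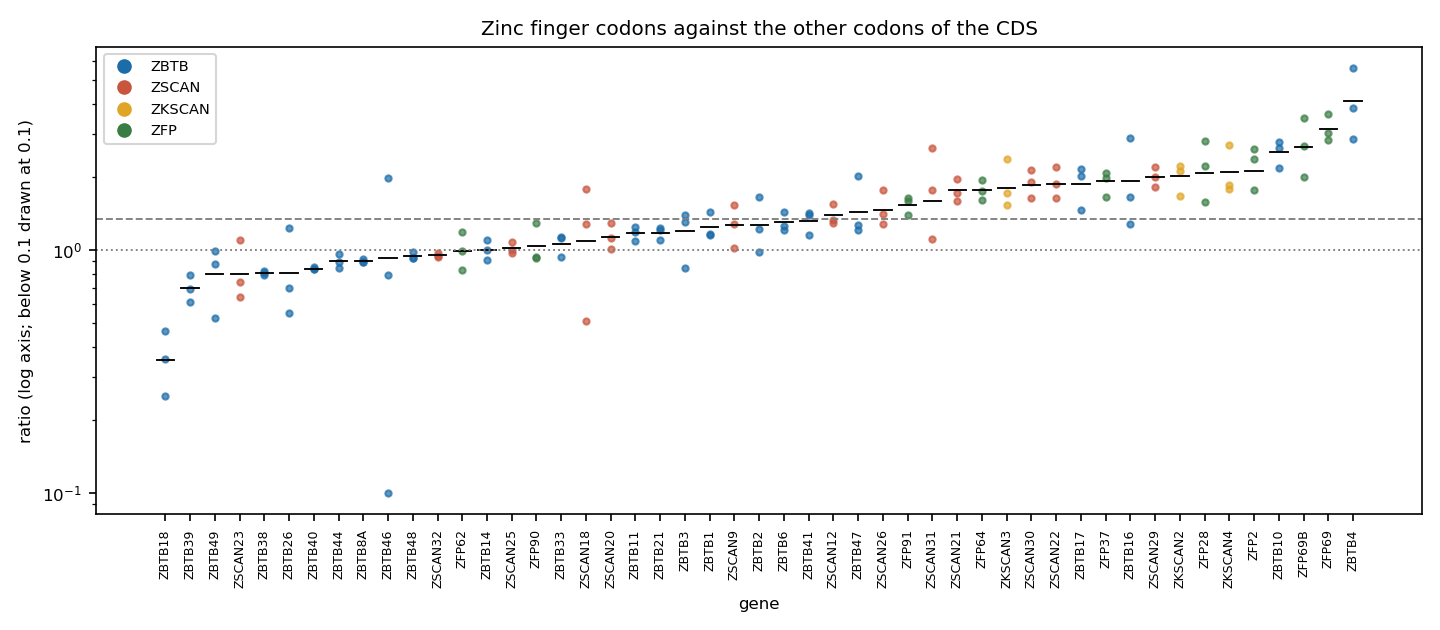
Mean occupancy of zinc finger codons divided by that of the other CDS codons (vertical axis, log scale) for 49 members with at least 2 fingers; points are the 3 read sets, black bars the deposited values, the dashed line the median of ZNF transcripts, 1.35, and the dotted line 1. ZBTB18 is lowest at 0.355 and ZBTB4 highest at 4.12, and ZSCAN, ZKSCAN and ZFP genes make up most of the higher values.

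The ratio was highest in ZBTB4, at 3.86, 5.60 and 2.85 in read sets 1, 2 and 3 (deposited value 4.12, SD 1.4), on 121 reads. ZFP69 had 2.84, 3.63 and 3.03 (3.15, SD 0.41), and the neighbouring ZFP69B had 2.67, 2.00 and 3.49 (2.65, SD 0.74). ZBTB18 was lowest, with 0.250, 0.463 and 0.358 (0.355, SD 0.11). ZBTB39 had 0.614, 0.790 and 0.689 (0.699, SD 0.088). Both passed the test as lower (limma, adjusted p = 6.41e-04 and 0.0056), while ZBTB49, with 0.874, 0.995 and 0.526, did not (adjusted p = 0.16). The other members that passed as lower were ZBTB38, with 0.806 (limma, adjusted p = 0.030), and ZBTB40, with 0.840 (limma, adjusted p = 0.047). Among members known by function, ZBTB4, ZBTB17 (1.87), ZKSCAN3 (1.81), ZFP64 (1.77), ZSCAN21 (1.76) and ZFP91 (1.54) passed as higher, and ZBTB18 and ZBTB38 as lower. ZBTB2 had 1.27, ZBTB11 1.17, ZBTB33 1.06, ZBTB14 1.00 and ZBTB48 0.946, and none of these 5 passed (limma, adjusted p from 0.067 to 0.92). ZBTB16 had 1.93 on 70 reads, too few for the test.

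Aligned to the first histidine of each finger, the occupancy had a repeated shape. In 48 members with at least 100 reads (339 fingers with 20 codons on each side in the CDS), it was 2.20 ± 0.23, 2.07 ± 0.12 and 2.78 ± 0.23 times the mean of the finger codons in the codons 2, 3 and 4 after that histidine (SD over the 3 read sets). At the first histidine it was 0.763 ± 0.078. In 293 ZNF transcripts (3151 fingers) the same codons had 2.61 ± 0.019, 2.92 ± 0.17 and 3.08 ± 0.079, and the first histidine 0.649 ± 0.0011. After 0.685 and 0.714 at codon 5, the occupancy was again high at codon 6, at 2.04 ± 0.21 in members and 1.98 ± 0.17 in ZNF transcripts. The mean over the 3 codons was 2.35 in members, with 2.27, 2.33 and 2.42 in the read sets. These codons were chosen after the profile had been seen, so no test is given. Taking the median of transcripts in place of the mean gave 1.85. Each transcript had equal weight in the mean. Among the members with the most finger reads, codons 2 to 4 had 1.26 in ZBTB11 (1554 finger reads) and 0.719 in ZFP91 (1115). ZBTB10 had 0.574 (861), ZSCAN12 3.43 (741) and ZFP64 1.18 (653). The largest value of a member, 5.83 in ZSCAN18, rested on 10 finger reads. A dependence on read number was not tested.

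**Figure D5:**
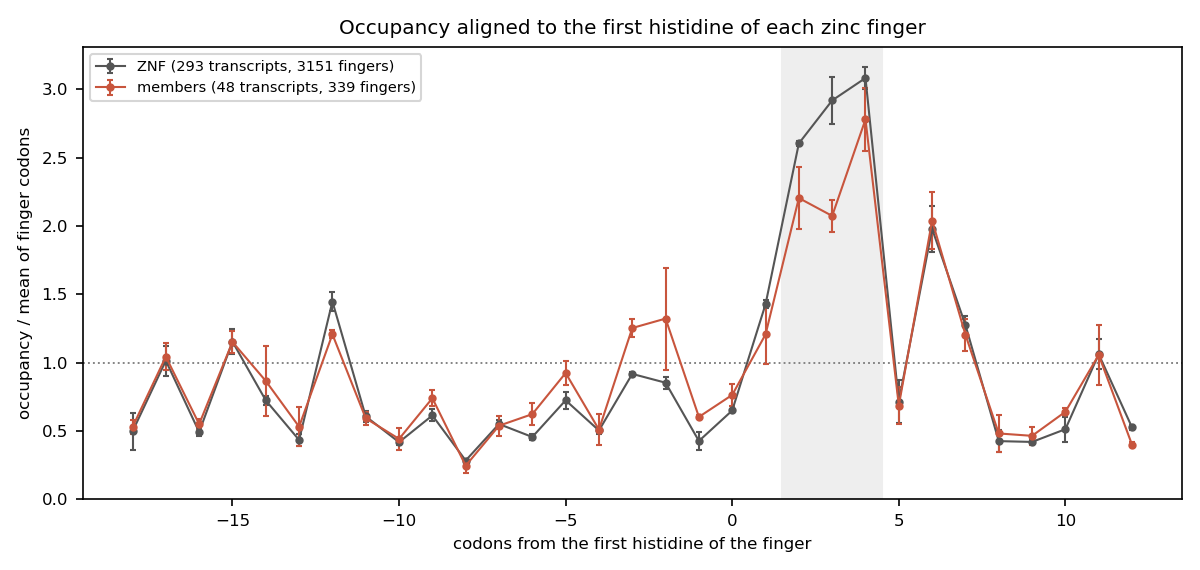
Occupancy relative to the mean of the finger codons (vertical axis) against the position in codons from the first histidine of the finger (horizontal axis), averaged over fingers within and then over transcripts, for 48 members and 293 ZNF transcripts; bars are the SD over 3 read sets and the shaded band holds codons 2 to 4. Both curves rise above 2 within the band and fall to 0.685 and 0.714 at codon 5, before a further rise to 2.04 and 1.98 at codon 6.

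The second histidine lies at codon 4 in 323 of the 368 fingers, and the 2 histidines of a finger differed in occupancy. Over 48 members the second histidine had a mean of 2.44 times the finger codons (median 1.61) and the first 0.749 (median 0.440), and the second was above the first in 32. Histidine codons outside the fingers had 0.890 (median 0.641), also relative to the mean of the finger codons and not to that of the codons around them. The average over codons 2 to 4 was above that of the rest of the fingers in 42 of 48 members and in 270 of 293 ZNF transcripts. Codons 2 to 4, which mostly include the second histidine, were chosen from the profiles of these same transcripts. Both counts and the comparison of the 2 histidines are therefore descriptions. Fingers followed by a linker that opens with threonine, glycine and glutamate had 3.09 (35 members, 157 fingers), and those without it 1.61 (47 members, 202 fingers). The linker value was the larger in 24 of 34 members with both kinds of finger, and in 207 of 255 ZNF transcripts. The first finger of a member had a median of 1.07 and the later fingers 2.13, while the means were closer, 2.25 and 2.43, and the first was above the later fingers in 17 of 48 members. Fingers repeat a sequence, and the part of nuclease or ligation preference for that sequence was not tested. In 49 of the 56 matched members under 5% of the CDS 30-mers occur in other genes, and the mean over codons 2 to 4 in members under that limit was 2.38.

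To show what lies under this maximum, the finger with the highest occupancy in codons 2 to 4 is printed for the 5 members with the most reads after ZBTB10, whose sequence is not shown here. ZBTB10, with 2 fingers, had 0.574 times the mean of the finger codons in codons 2 to 4, with 0.189 in its first finger and 0.960 in the other, so these codons were not raised in the member with the most reads. Each stretch is 30 nt of the CDS from 2 codons before the first histidine, in the sense of the mRNA, and the capitals mark codons 2 to 4 after it.
ZBTB11, finger 1 of 12, GRCh37 chr3:101383400-101383429, minus strand: ataatgcacaaaCTGAAACATgaaagagct
ZBTB33, finger 2 of 3, GRCh37 chrX:119388882-119388911, plus strand: acaaagcatgaaATTCATCACacaggggag
ZFP91, finger 3 of 5, GRCh37 chr11:58384248-58384277, plus strand: gcagtgcaccggATGATTCACactggcgag
ZBTB21, finger 5 of 6, GRCh37 chr21:43411319-43411348, minus strand: tggagtcacttcCAATCGCACatgtctcag
ZBTB1, finger 2 of 5, GRCh37 chr14:64990086-64990115, plus strand: cgactgcacaatGATATGCACaaaggcatg
The 3 codons in capitals had 3.35 times the mean of the finger codons in ZBTB11 (60 reads), 1.96 in ZBTB33 (47 reads), 2.21 in ZFP91 (69 reads), 1.88 in ZBTB21 (22 reads) and 3.75 in ZBTB1 (49 reads). In all of them the capitals end with a histidine codon, which is the second histidine of the finger. The fingers were chosen for this value, which is therefore a description. Averaged over all fingers of the gene, codons 2 to 4 had 0.719 in ZFP91, so they were not raised there either. The same average was 1.26 in ZBTB11, 1.38 in ZBTB33, 1.44 in ZBTB1 and 2.04 in ZBTB21.

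In a few members a single codon held a large part of the occupancy. The highest codon held 10% or more of the CDS occupancy in 8 of 62 members, a count not made over all transcripts. The median share was 5.15% (4.95% over all transcripts). Members had a median of 659 CDS reads against 1776 in all transcripts, and the part of read number in these shares was not tested. The highest codon lay inside a finger in 17 of the 49 members with at least 2 fingers. Finger codons were 23.6% of the CDS in the median member, from 4.95% to 59.1%. The highest codon lay in codons 2 to 4 after the first histidine in 9 members, all of them ZSCAN, ZKSCAN or ZFP genes. Such codons were 3.33% of the CDS in the median member. Codons 2 to 4 were chosen from a profile to which these reads contribute, so the count of 9 is a description. Neither this count nor that of 17 was made for ZNF transcripts. The 3 largest shares are shown with the codon in capitals, in the sense of the mRNA.
ZSCAN31, codon 186, GRCh37 chr6:28294114-28294143, minus strand: catcagaggataCACactggagagaagcgc
ZBTB22, codon 529, GRCh37 chr6:33283092-33283121, minus strand: aagcaccatctgACTgagcacatgaagacg
ZSCAN18, codon 150, GRCh37 chr19:58601338-58601367, minus strand: gagctgctggtgCTGgagcagttcctgggc
Codon 186 of ZSCAN31 held 35.6% of the CDS occupancy, with 17, 9 and 15 reads in read sets 1, 2 and 3 of 120 in all. It lies 4 codons after the first histidine of a finger. Codon 529 of ZBTB22 held 30%, with 17, 8 and 11 reads of 117, also within a finger. Codon 150 of ZSCAN18 held 19.0%, with 8, 9 and 6 reads of 129, and lies outside the fingers. Each of these peaks was present in all 3 read sets, on transcripts with few reads.

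Reads upstream of the start codon were few. The last 17 codons of the 5′UTR, taken where the 5′UTR is longer than 100 nt, held 368 reads over 51 members, and 43 of them had under 10. Divided by the mean of the CDS, the occupancy there had a median of 0.124 (0.106, 0.114 and 0.0761 in the read sets, SD 0.020), against 0.0406 over 6907 transcripts and 0.112 over ZNF transcripts. The members' median was 0.0808 with the last 10 codons and 0.0805 for 5′UTRs longer than 200 nt, settings not computed for all transcripts. With 17 codons, 38 of 51 members were above the median of all transcripts. By subfamily the medians were 0.113 for ZBTB, 0.399 for ZSCAN, 0.132 for ZKSCAN and 0.0165 for ZFP transcripts. The value counts reads in the frame of the CDS, so upstream frames in another phase are not in it. CDS occupancy, the denominator, had the lower median in members, and the occupancy of the 5′UTR window itself had a median of 0.00360 in members and 0.00195 in all transcripts.

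The highest ratios were 1.91 in ZBTB49, with 4, 3 and 1 reads in read sets 1, 2 and 3, 1.57 in ZBTB4, with 2, 0 and 1, and 0.980 in ZSCAN20, with 0, 4 and 2. Counts of this size do not separate them from each other. ZFP36L2 had 14, 14 and 6 reads and a ratio of 0.290 (0.274, 0.369 and 0.228 in the read sets). ZBTB8OS, which is no zinc finger gene, held 121 of the 368 reads.

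The 3′UTRs of the 62 members held 165 in-frame reads, and 34 had 0. The largest shares of a transcript's occupancy were 4.88% in ZKSCAN3, with 4, 11 and 2 reads, 4.44% in ZFP14, with 18, 11 and 6, and 2.90% in ZSCAN29, with 13, 11 and 6. In ZBTB8A, which had 26 reads and 2.39%, all 30-mers of the CDS (100%) recur elsewhere in the transcriptome. The median share was 0 in members, 0.0165% in all transcripts and 0.123% in ZNF transcripts. Members had fewer CDS reads than either, and the part of read number was not tested. The count of transcripts with 0 reads in the 3′UTR was not made over all transcripts.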

How the data were processed

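Ribosome profiling and total RNA libraries of HEK293 cells (3 replicates each) were analysed from 2 tables. For RPFs, the authors trimmed adapters (Cutadapt), collapsed PCR duplicates (cd-hit-dup), discarded rRNA and tRNA reads and mapped the rest with bowtie on hg19 transcripts, keeping lengths of 28 to 30 nt at an offset of 13 nt. For total RNA, Hisat2 and HTseq-count were used. The submitters' processing notes list cutadapt 1.16, Bowtie 1.1.2, TopHat2 2.1.1 and HTSeq 0.9.1. The deposited efficiency table gives a ratio of RPFs over total RNA for each replicate. No source used here states its formula. The deposited occupancy table gives library-normalized RPF counts over TPM for each codon, in frame, combined over replicates by the authors.

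The efficiency of each of 8121 genes was set against the median of all genes in a limma fit (version 3.58.1, R 4.3.3) after a pseudocount of 0.01. RPF and total RNA libraries of a number come from 1 lysate and the ratio is taken within the pair, so pairing is part of the values. Log2 efficiencies of the members correlated between replicates (Pearson 0.973, 0.980 and 0.973). Nothing in the labels says that replicates are separate cultures, so p-values measure the spread between these samples, which may be technical. Reads per codon and library were recovered exactly for 9405 of 9570 transcripts, with 57175937 CDS reads. A read set is numbered within a transcript by the worth of a read, so a number need not mark the same library in all transcripts. Reads in windows or in fingers were compared as log2 ratios of reads + 0.5 with limma, with 1 value for each read set. These fits were added after the data had been seen. The scripts were tested on simulated data. Intervals and floors cover counting error only.

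Fingers were found in the translated CDS of the GENCODE 44 transcript (lifted to GRCh37) with the same symbol and number of codons, because no protein sequences were used here. The members and gene lists were chosen with earlier results of these data known. Named are the 5 highest and 5 lowest efficiencies, the 3 largest SDs, the 3 highest and lowest values of each occupancy measure, and members known by function. Genes of fixed lists, genes in counts of 5 or fewer, ranges of reads and ZBTB8A were also named, after their values were seen. Python 3.11.15, numpy 2.4.6, pandas 2.3.3 and numba were used.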

Additional observations from a re-analysis of the deposited data

How the results depend on the processing

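The 10 higher and 26 lower members in translational efficiency became 8 to 11 and 23 to 25 when a replicate was left out, and stayed within 1.5 times those counts under every alternative run. With the replicate block, the median of each replicate removed, the counts were 10 and 26 and the members' median was −0.34, and no call of a named gene changed. With a pseudocount of 0.1 the median moved from −0.34 to −0.27. Of the named genes, ZBTB39 lost its call without replicate 2 (adjusted p = 0.073, limma) and without replicate 3 (adjusted p = 0.095), and ZFP14 gained one without replicate 2. No direction was reversed.

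Median CDS occupancy was 0.0287 to 0.0326 when a read set was left out. The median finger ratio of 1.27 was 1.32 without the first and last 15 codons, 1.33 with values above the 99th percentile set to it, 1.24 in members sharing under 5% of 30-mers, 1.28 in members with at least 500 reads, and 1.27 to 1.34 without a read set. The 5′UTR value of 0.124 fell to 0.0808 with 10 codons and to 0.0805 for 5′UTRs over 200 nt, and it rests on few reads. The finger maximum of 2.35 was 1.85 as a median over transcripts. The cause of these shifts was not tested. Counts of members in the window and finger tests stayed within 1.5 times without each read set. The alternatives on read sets, minimum reads and shared 30-mers were chosen after seeing the data. Occupancy is combined over replicates, so its spread was judged from read sets alone.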
